A study of Homo sapiens with 17 samples.

Results

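The CYP2 cluster on chromosome 19 holds 6 protein-coding cytochrome P450 genes of the CYP2 family, CYP2A6, CYP2A7, CYP2B6, CYP2A13, CYP2F1 and CYP2S1 in order along the chromosome, out of 19974 protein-coding genes in the RefSeq table of GRCh38.p14. They were chosen by name, with their histone mark cover and the binding around them already known from these data, so every value here is a description and none was tested. The measurements are ChIP-seq peak lists, 1 list per library, from A549, an established line of human lung carcinoma cells. In a derived A549 line that carries A-Fos, a dominant-negative Fos protein integrated with piggyBac and switched on by doxycycline, FOXA1 and FOSL2 (antibody labelled Fra2) were profiled after 48 h in 1 µg/mL doxycycline and in the same line without doxycycline. In wild-type (WT) A549 cells, which do not carry A-Fos, FOXA1, H3K27me3 and H3K9me3 were profiled. Each group has 2 libraries, called biological replicates by the labels, and the 3 inputs of the 17 samples were not analysed here. No library of doxycycline-treated cells without A-Fos was analysed here, so A-Fos and doxycycline cannot be told apart, and the histone marks were profiled in WT cells alone.

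CYP2 enzymes are haem monooxygenases of the endoplasmic reticulum that oxidise drugs, nicotine, odorants and inhaled toxins, with electrons passed to them by the reductase POR. In humans CYP2A6, the main nicotine oxidase, and CYP2B6, which oxidises bupropion and efavirenz, are best known from liver, while CYP2A13 and CYP2F1 are known from the airway epithelium, where they activate tobacco nitrosamines and naphthalene. CYP2A7 lies beside CYP2A6 and its protein is not known to be an active enzyme, and CYP2S1 is known from epithelia outside the liver. H3K27me3 is the Polycomb mark of silent developmental and tissue-restricted genes, H3K9me3 is the mark of constitutive heterochromatin, FOXA1 is a forkhead factor that can bind closed chromatin, and FOSL2 is a Fos-family subunit of AP-1, whose dimers A-Fos disables.

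The stretches before the transcription starts of 5 members show how CYP2S1 differs from CYP2A6, CYP2A7, CYP2B6 and CYP2A13 in CpG content. The choice of members did not use this feature. CYP2F1, the member nearest to CYP2S1, had no promoter entry. Each stretch is the 250 bases before the start, from RefSeq on GRCh38.p14, written 5′ to 3′ on the gene's own strand, with CpG dinucleotides in capitals. They lie at chr19:40850448-40850697 on the minus strand for CYP2A6, chr19:40882232-40882481 on the minus strand for CYP2A7, chr19:40991032-40991281 on the plus strand for CYP2B6, chr19:41088201-41088450 on the plus strand for CYP2A13 and chr19:41192969-41193218 on the plus strand for CYP2S1.
CYP2A6: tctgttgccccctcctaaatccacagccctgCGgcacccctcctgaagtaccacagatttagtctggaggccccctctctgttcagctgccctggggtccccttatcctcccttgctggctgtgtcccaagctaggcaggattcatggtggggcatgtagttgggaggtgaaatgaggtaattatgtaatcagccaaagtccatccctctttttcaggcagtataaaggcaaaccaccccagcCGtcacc
CYP2A7: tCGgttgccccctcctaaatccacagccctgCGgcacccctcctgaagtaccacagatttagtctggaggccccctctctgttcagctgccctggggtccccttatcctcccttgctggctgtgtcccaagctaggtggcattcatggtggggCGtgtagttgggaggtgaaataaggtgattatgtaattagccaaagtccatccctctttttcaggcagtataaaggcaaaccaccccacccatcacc
CYP2B6: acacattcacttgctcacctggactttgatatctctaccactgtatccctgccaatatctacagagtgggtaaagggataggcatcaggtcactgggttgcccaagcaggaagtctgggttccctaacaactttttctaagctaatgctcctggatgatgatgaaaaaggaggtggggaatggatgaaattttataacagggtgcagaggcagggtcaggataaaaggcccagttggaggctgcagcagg
CYP2A13: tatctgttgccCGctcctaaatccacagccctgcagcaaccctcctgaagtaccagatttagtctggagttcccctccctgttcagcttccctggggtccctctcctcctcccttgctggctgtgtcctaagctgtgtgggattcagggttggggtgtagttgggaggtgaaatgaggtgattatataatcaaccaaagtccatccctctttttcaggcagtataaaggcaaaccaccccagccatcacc
CYP2S1: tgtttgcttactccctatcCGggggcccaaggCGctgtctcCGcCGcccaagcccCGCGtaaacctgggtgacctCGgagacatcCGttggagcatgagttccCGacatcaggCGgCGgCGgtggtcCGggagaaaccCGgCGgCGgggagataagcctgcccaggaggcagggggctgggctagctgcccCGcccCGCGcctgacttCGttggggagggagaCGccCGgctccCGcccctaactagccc

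The printed stretches held 2 CpGs in CYP2A6, 3 in CYP2A7, 0 in CYP2B6, 1 in CYP2A13 and 23 in CYP2S1. Over the 300 bases that run from 250 before to 50 after the start, the observed over expected CpG ratio was 0.0906 for CYP2A6, 0.134 for CYP2A7, 0.0539 for CYP2B6, 0.0481 for CYP2A13 and 0.791 for CYP2S1, beside a median of 0.58 over 34961 RefSeq promoters. GC content ran from 50% in CYP2B6 to 55.3% in CYP2A7, and was 70% in CYP2S1, with a median of 58.7% over all promoters. The CYP2A6 and CYP2A7 promoters were identical at 287 of 300 aligned positions (95.7%), CYP2A13 matched them at 90.1% and 89.8%, and the other pairs matched at 48.1% to 51.9%. Where stretches are as alike as these 3 CYP2A promoters, the placement of reads and peaks between them is uncertain. A search of both strands found neither forkhead core, TGTTTAC nor TATTTAC, and no AP-1 site, TGANTCA, in the 5 promoters, while 3.42%, 2.67% and 7.68% of all promoters hold them. A CCAAT box was found once, 199 bases before the start of CYP2B6, and 34.6% of all promoters hold one.

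H3K27me3 lay over 5 of the 6 genes in both WT libraries and stopped short of CYP2S1. CYP2A6, at chr19:40843541-40850447, had 100% and 100% of its body inside H3K27me3 peaks in WT libraries 1 and 2. CYP2A7, at chr19:40875439-40882231, and CYP2A13, at chr19:41088451-41096195, were likewise covered to 100% and 100%. CYP2B6, at chr19:40991282-41018398, was covered to 91.1% and 91.8% (91.4 ± 0.464%, SD, n = 2). CYP2F1, at chr19:41114432-41128381, was covered to 53.7% and 58.8% (56.3 ± 3.61%, SD, n = 2). CYP2S1, at chr19:41193219-41207539, had no base inside a peak in either library. The SD over the 2 libraries was at most 3.61 percentage points for any member, and the order of CYP2A6, CYP2A7 and CYP2A13 above CYP2B6, then CYP2F1, then CYP2S1 was the same in each.

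At least 50% of the body was covered in both H3K27me3 libraries for 5 of 6 members, beside 5.04% of all protein-coding genes. The median over the 6 members was 95.6% in library 1 and 95.9% in library 2, against a median of 0% and means of 7.37% and 9.27% over all genes. A body covered whole in both libraries, as in CYP2A6, CYP2A7 and CYP2A13, was seen in 0.436% of genes, and 63.6% of genes had no covered base in either, as in CYP2S1. These shares come from the values that chose the locus and are given as background.

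H3K9me3 lay over the same 5 genes but filled less of them and differed more between libraries. CYP2A7 was covered to 89.4% and 65.0% (77.2 ± 17.2%, SD, n = 2), and CYP2A13 to 86.1% and 38.7% (62.4 ± 33.5%). CYP2A6 was covered to 58.5% and 24.8% (41.6 ± 23.9%), CYP2F1 to 38.7% and 33.8% (36.3 ± 3.51%), and CYP2B6 to 45.0% and 24.99% (35.0 ± 14.2%). CYP2S1 had no covered base in either library. Among the 5 covered genes, neighbours in this order differed by less than the SD of the more variable of the pair. Both values of CYP2A7 lay above both values of CYP2A6, of CYP2F1 and of CYP2B6. All 5 genes lay above the 0% of CYP2S1, a state that 50.8% of genes shared in both libraries. CYP2A7 was the 1 member with at least 50% in both libraries, beside 2.19% of all genes. The median over the 6 members was 51.8% in library 1 and 29.4% in library 2, against a median of 0% and means of 5.08% and 4.72% over all genes.

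CYP2A7 also reached 50% in all 4 histone lists, which 19 genes did (0.0951% of all). At 20% in all 4 lists the 5 covered members passed, among 145 genes (0.726%).

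**Figure D1:**
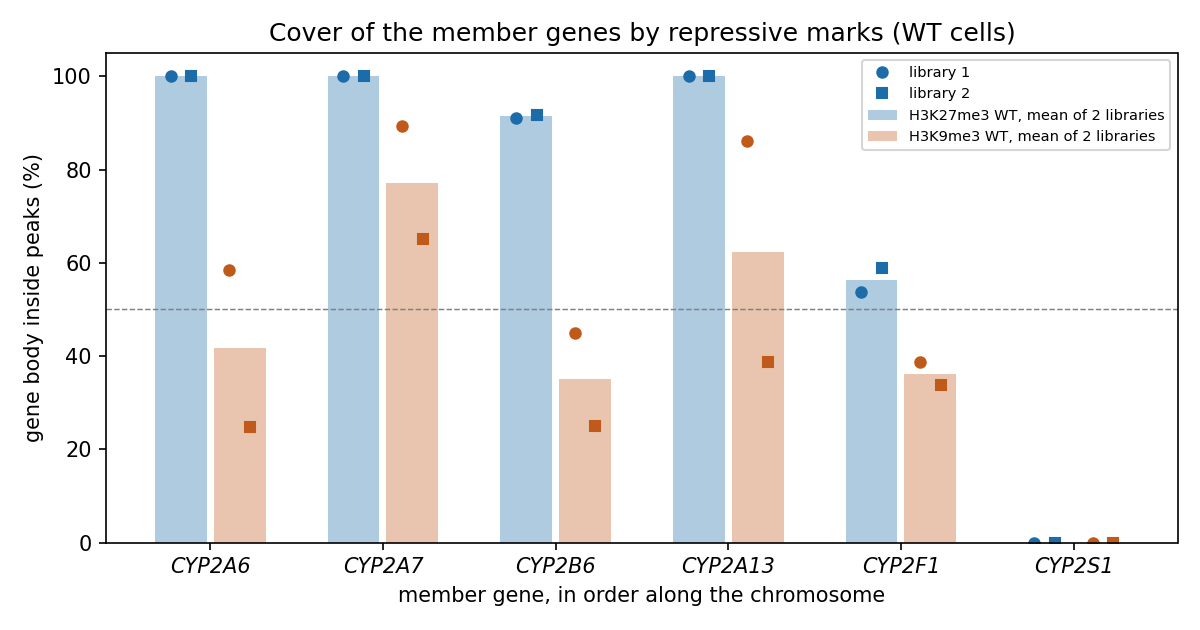
Percent of each gene body inside H3K27me3 (blue) and H3K9me3 (orange) peaks in WT A549 cells, genes in order along the chromosome. Bars are means of 2 libraries, circles library 1, squares library 2, and the dashed line marks 50%. H3K27me3 is at 100% on 3 genes and at 0% on CYP2S1, and the 2 H3K9me3 libraries lie far apart on CYP2A6 and CYP2A13.

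The highest authors' fold enrichment of an H3K27me3 peak touching the gene was 9.58 and 12.02 for CYP2A6, 10.7 and 13.1 for CYP2A7, 11.8 and 16.2 for CYP2B6, and 11.2 and 17.4 for CYP2A13, in libraries 1 and 2. CYP2F1 had the lowest of the 5, at 8.54 and 8.09. For H3K9me3 the highest fold enrichment was 10.5 and 5.14 over CYP2A7 and 8.64 and 6.67 over CYP2A13. The other covered genes had H3K9me3 folds of 5.80 and 4.10 (CYP2A6), 6.86 and 5.71 (CYP2F1) and 4.89 and 5.99 (CYP2B6). A fold is the authors' value within its own list.

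The ends of the genes showed where the marks ran past the bodies and where they stopped. Within 1 kb of the transcription start, H3K27me3 covered 100% in both libraries for CYP2A6, CYP2A7, CYP2B6 and CYP2A13. The same held at the lower-coordinate end of CYP2F1. The share of all genes with ends covered whole was not computed. At the higher-coordinate end of CYP2F1 the cover was 48.4% and 49.9%, and most of the uncovered part of the gene lay on that side. In library 1 CYP2F1 lacked H3K27me3 at chr19:41121833-41124820 and chr19:41125196-41128381, and in library 2 at chr19:41122031-41124723 and chr19:41125332-41128381. Library 1 also left 282 bp uncovered nearer the lower-coordinate end, at chr19:41115546-41115827. H3K9me3 parted from H3K27me3 at the start of CYP2B6, where it covered 1.4% and 0% of the 2 kb, and at the higher-coordinate end of CYP2F1, where it covered 0% and 0%. It covered 100% in both libraries at the transcription end of CYP2A13 and at the lower-coordinate end of CYP2F1. Around both ends of CYP2S1 neither mark had a covered base in any of the 4 lists.

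With peaks at most 5 kb apart joined, the 5 covered genes lay whole inside 1 H3K27me3 domain in each WT library. With gaps of 2 kb the domain came apart into 5 blocks touching members in library 1 and 4 in library 2, the longest of 134 kb in each, with CYP2B6 and CYP2A13 together in both libraries and CYP2F1 in blocks of its own. The 5 kb domain ran over chr19:40827585-41147351 in library 1, 320 kb long and 84.9% covered by 55 peaks, and over chr19:40811584-41147371 in library 2, 336 kb long and 86.9% covered by 39 peaks. By length it ranked 11 of 45326 joined blocks in library 1 and 40 of 48547 in library 2. The upper edge fell 45.9 and 45.8 kb below CYP2S1, and the lower edge fell 16.0 and 32.0 kb below CYP2A6. The highest H3K27me3 fold in the domain, 13.1 and 17.4, stood at percentile 99.96 and 99.98 of its list.

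H3K9me3 over the same span was broken. In library 1 a block of 22.7 kb held CYP2A6, and a block of 255 kb at chr19:40869476-41124920 held CYP2A7, CYP2B6 and CYP2A13 whole and ended inside CYP2F1. In library 2 the members lay in 5 separate blocks of 1.77 to 54.8 kb. Within the stretch common to both H3K27me3 libraries, 267 kb (83.6%) lay in H3K27me3 peaks of both libraries and 107 kb (33.5%) in H3K9me3 peaks of both. The overlap was 102 kb, which is 95.0% of the H3K9me3 stretch and 38.1% of the H3K27me3 stretch. The span was drawn from H3K27me3 peaks, so a high share of H3K9me3 inside them was largely fixed in advance. The 95.0% and 38.1% are therefore read beside the 83.6% and 33.5% of the span that each mark filled. Over chromosomes 1 to 22 and X, not chosen by a mark, the overlap was 10.0% of H3K9me3 and 6.89% of H3K27me3.

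**Figure D2:**
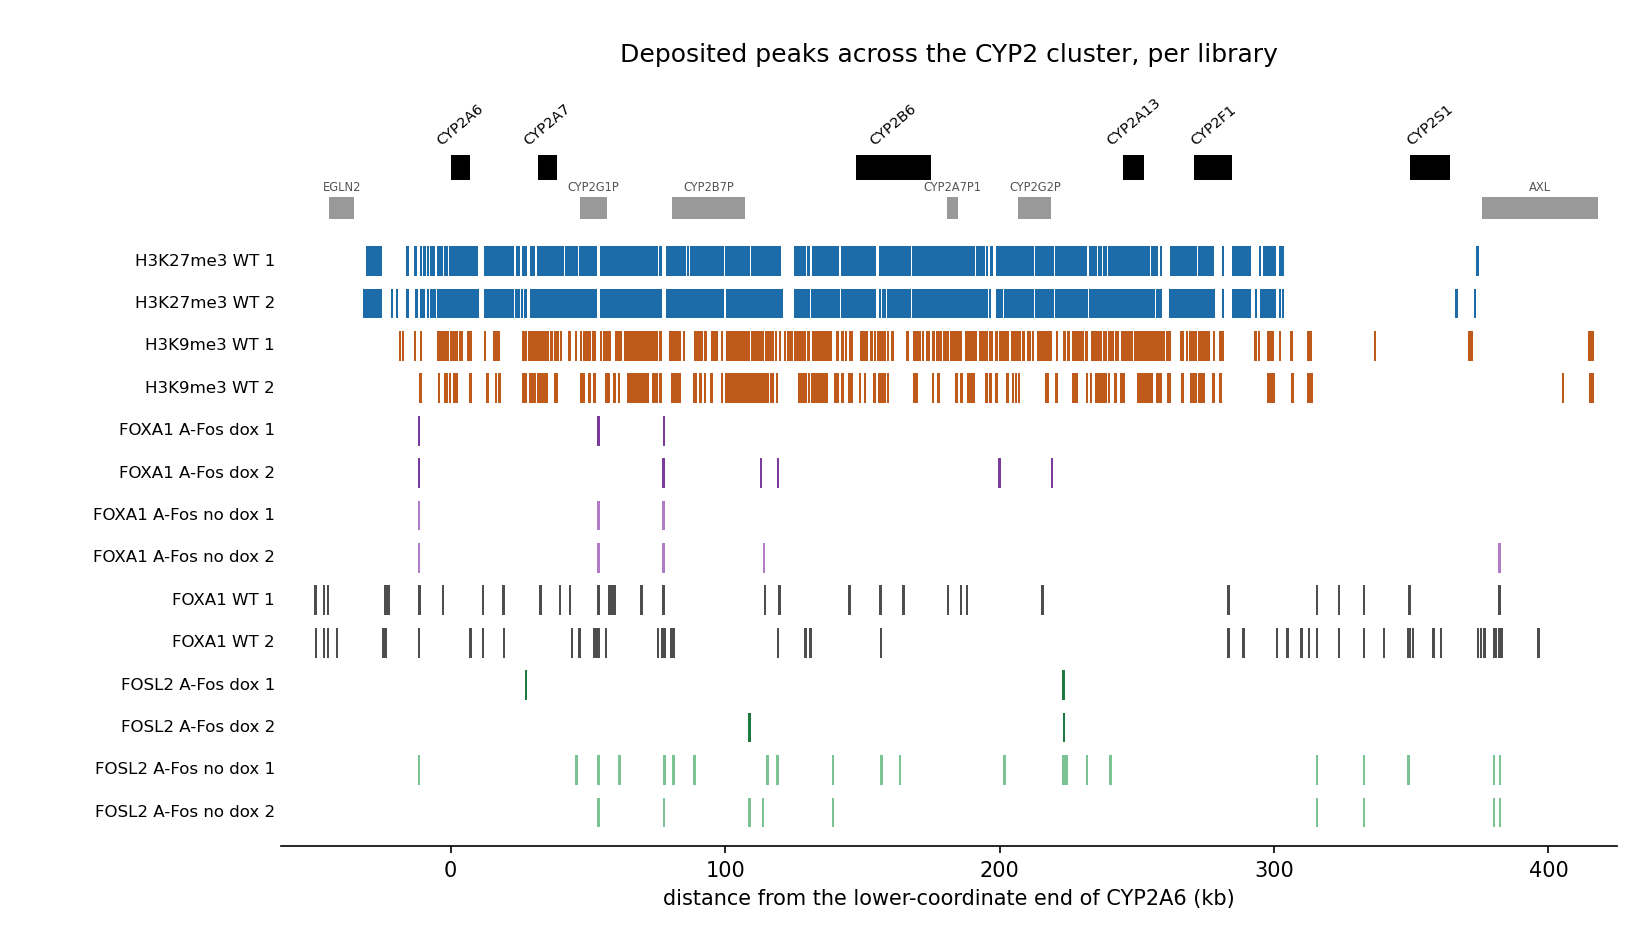
Deposited peaks across the cluster in each of the 14 lists, by distance in kb from the lower-coordinate end of CYP2A6. Black boxes are the 6 members, grey boxes are other annotated genes and pseudogenes, and each tick or block in a row is 1 peak of that library. H3K27me3 is near-continuous from about CYP2A6 to past CYP2F1, with no peak over CYP2S1.

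The 4 CYP2 pseudogenes that lie between CYP2A6 and CYP2F1 carried the marks as the covered members did. Sequence likeness between pseudogenes and members was not measured, so the placement of reads between them is uncertain. CYP2B7P was covered by H3K27me3 to 95.3% and 98.2% and by H3K9me3 to 61.1% and 49.5%, and CYP2A7P1 to 100% and 100% and to 67.8% and 21.0%. CYP2G1P had 92.0% and 91.6% H3K27me3 and 54.0% and 38.6% H3K9me3, and CYP2G2P had 95.2% and 95.1% and 59.2% and 17.7%. CYP2T3P, between CYP2F1 and CYP2S1, had H3K27me3 at 20.6% and 32.4% and H3K9me3 at 12.4% and 0%. Below CYP2A6, H3K27me3 was at 0% and 14.1% in CYP2F2P and at 0% and 0% in CYP2T1P. Of 21 other protein-coding genes within 250 kb, 17 had no H3K27me3 base in either library. ERICH4 was covered to 100% and 100%, and the oxygen sensor EGLN2 below the cluster and the receptor kinase AXL above it had no covered base.

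FOXA1 and FOSL2 peaks lay within 50 kb of the members in all 10 factor lists, and the 3 longest lists had the 3 highest counts. FOXA1 gave 3 and 6 peaks with doxycycline (4.5 ± 2.12, SD, n = 2), 3 and 5 in the A-Fos line without it (4 ± 1.41), and 34 and 44 in WT cells (39 ± 7.07). FOSL2 gave 2 and 2 peaks with doxycycline (2 ± 0) and 22 and 9 without it (15.5 ± 9.19). The FOXA1 groups with and without doxycycline overlapped, and the FOSL2 groups did not.

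The lists are of unequal length and unknown depth, so the counts are read as shares. The FOXA1 lists held 11112 and 15065 peaks with doxycycline, 7633 and 13247 without it and 49448 and 80318 in WT cells, and the FOSL2 lists 1854 and 5274 with doxycycline and 45586 and 14842 without it. The peaks near members made up 0.027% and 0.0398% of the FOXA1 lists with doxycycline, 0.0393% and 0.0377% without it and 0.0688% and 0.0548% in WT cells. They made up 0.108% and 0.0379% of the FOSL2 lists with doxycycline and 0.0483% and 0.0606% without it. As shares, neither factor separated its doxycycline libraries from those without doxycycline.

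In both libraries of a group, 2 of 6 members had a FOXA1 peak within 50 kb with doxycycline (28.9% of all genes), 2 without it (24.0%) and 6 in WT cells (75.8%). For FOSL2 the count was 3 of 6 with doxycycline (3.75% of all genes) and 5 without it (44.0%). The 3 members with FOSL2 peaks under doxycycline, CYP2B6, CYP2A13 and CYP2F1, shared 1 region, so they are not separate instances. No FOSL2 peak with doxycycline was left near any member at −log10 q of at least 3, and the region was no longer called in both libraries with 200 bp around summits. Members that lie close together share most of their windows. The peaks nearest the 50 kb limit lay at 50.0 kb from CYP2A7 inside it, with a fold of 3.75, and at 50.2 kb from the same gene outside it, with a fold of 2.46.

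**Figure D3:**
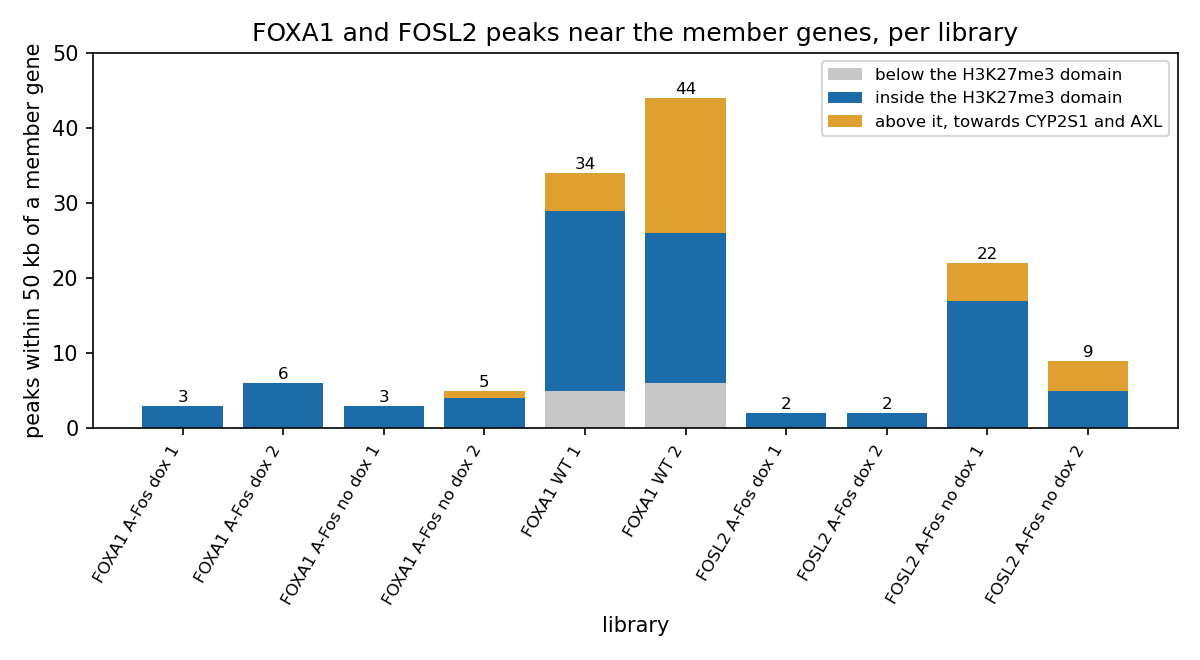
Number of FOXA1 and FOSL2 peaks within 50 kb of a member gene in each library, split by position below, inside or above the H3K27me3 domain. Most peaks lie inside the domain in every list except the second WT FOXA1 list, where 20 of 44 do, and the doxycycline lists of both factors have none outside it. The domain itself fills most of the searched windows.

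By position, all FOXA1 peaks near members in the doxycycline libraries (3 and 6) and 3 and 4 of those without doxycycline lay inside the H3K27me3 domain, as did 24 and 20 in WT cells. The FOSL2 peaks inside it numbered 2 and 2 with doxycycline and 17 and 5 without it. The domain, 320 kb in the stretch common to both libraries, fills most of the searched windows. These counts therefore do not show a preference for it. Merging overlapping peaks gave 80 sites, 58 of them in 1 list only and 55 inside the domain. In both libraries of a group, FOXA1 marked 2 sites with doxycycline, 3 without it and 16 in WT cells, and FOSL2 marked 1 with doxycycline and 7 without it. Both FOXA1 sites with doxycycline were among the 3 without it, and over all FOXA1 regions shared by the pair of libraries without doxycycline, 53.3% were listed in both doxycycline libraries.

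The site with the highest fold enrichment lay at chr19:40920314-40921981, between the pseudogenes CYP2G1P and CYP2B7P and 38.1 kb from CYP2A7. Its FOXA1 fold was 10.3 and 9.78 with doxycycline, 24.9 and 45.8 in the A-Fos line without it, and 110 and 325 in WT cells. The groups did not overlap: both doxycycline values lay below both values without doxycycline, and WT cells were highest. The share of all regions with WT folds highest was not computed. The highest fold of a whole list was 649 and 795 in WT cells, 110 and 162 without doxycycline and 109 and 176 with it. Median folds were 5.31 and 5.19, 5.74 and 6.34, and 4.48 and 4.75 in the same order. Within each list this site stood at percentile 89.1 and 85.0 with doxycycline, 98.0 and 98.8 without it and 99.89 and 99.98 in WT cells. It ranked 33 of 35739 WT regions called in both libraries by mean percentile.

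Its mean log2 fold enrichment was lower with doxycycline than without it by a difference of -1.75. Of 3205 FOXA1 regions called in all 4 A-Fos lists, 3.28% had a difference at or below it, the median difference was 0.01, 22.7% had both doxycycline folds below both folds without it, and 14.6% had both percentiles below. FOSL2 peaks at this site had folds of 19.7 and 5.63 without doxycycline and none were listed in either doxycycline library, which was so for 98.4% of the FOSL2 regions called in both libraries without doxycycline. Each fold depends on its library's own background and the lists differ in length, so neither the folds nor the percentiles show a change in binding, and the difference was not tested.

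At this site H3K27me3 peaks covered 28.0% and 18.4% of the interval, and the FOXA1 summits of both WT libraries fell in gaps of 1201 and 1361 bp between H3K27me3 peaks. Of the WT FOXA1 regions called in both libraries, 1182 (3.31%) overlapped H3K27me3 in both libraries, and among those this site ranked 3 by mean percentile, counting from the top.

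FOXA1 was also listed with doxycycline in both libraries at chr19:40831634-40832524, 11.02 kb from CYP2A6, with folds of 5.53 and 4.33, against 5.14 and 5.77 without it and 15.7 and 37.4 in WT cells. The A-Fos groups overlapped there, and the mean log2 fold enrichment with doxycycline minus that without it was -0.15. At chr19:40896575-40898032, inside the pseudogene CYP2G1P and 14.3 kb from CYP2A7, the FOXA1 fold was 3.23 in doxycycline library 1 and not listed in library 2, against 4.14 and 6.13 without doxycycline and 19.2 and 58.0 in WT cells. FOSL2 folds at that site were 10.3 and 2.49 without doxycycline (percentile 70.4 and 1.15), with no peak in either doxycycline library.

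The other domain sites called in both libraries of a group carried FOXA1 in WT cells or FOSL2. FOXA1 peaks of both WT libraries lay 4.59 kb above CYP2A6 at chr19:40855039-40855542 (folds 11.3 and 11.5), 12.3 kb from CYP2A6 at chr19:40862702-40863081 (4.69 and 4.74), inside CYP2B6 at chr19:41000188-41000654 (5.46 and 9.90, with FOSL2 at 8.20 in library 1 without doxycycline) and inside CYP2F1 at chr19:41126683-41127120 (8.13 and 10.5). Of the 7 domain sites called in both WT libraries, 5 had their summits outside H3K27me3 peaks, in gaps of 774 to 3218 bp, and 2 had them inside. Beside them, 49.0% of the 2365 WT regions in joined H3K27me3 blocks had their summits outside the peaks, and 7 sites are too few to set apart from that.

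FOSL2 in the A-Fos line without doxycycline lay 8.08 kb from CYP2B6 at chr19:40982583-40983204, with folds of 10.3 and 1.90. Those folds stood at percentile 70.2 and 0.0539, so the library 2 call was among the weakest of its list. FOSL2 was not listed there with doxycycline. The 1 site with FOSL2 in both doxycycline libraries, at chr19:41066576-41067106 and 21.3 kb from CYP2A13, had folds of 3.12 and 2.63 with doxycycline and 3.08 in library 1 without it. These folds are low in their lists, at percentile 21.5 and 2.69 with doxycycline.

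**Figure D4:**
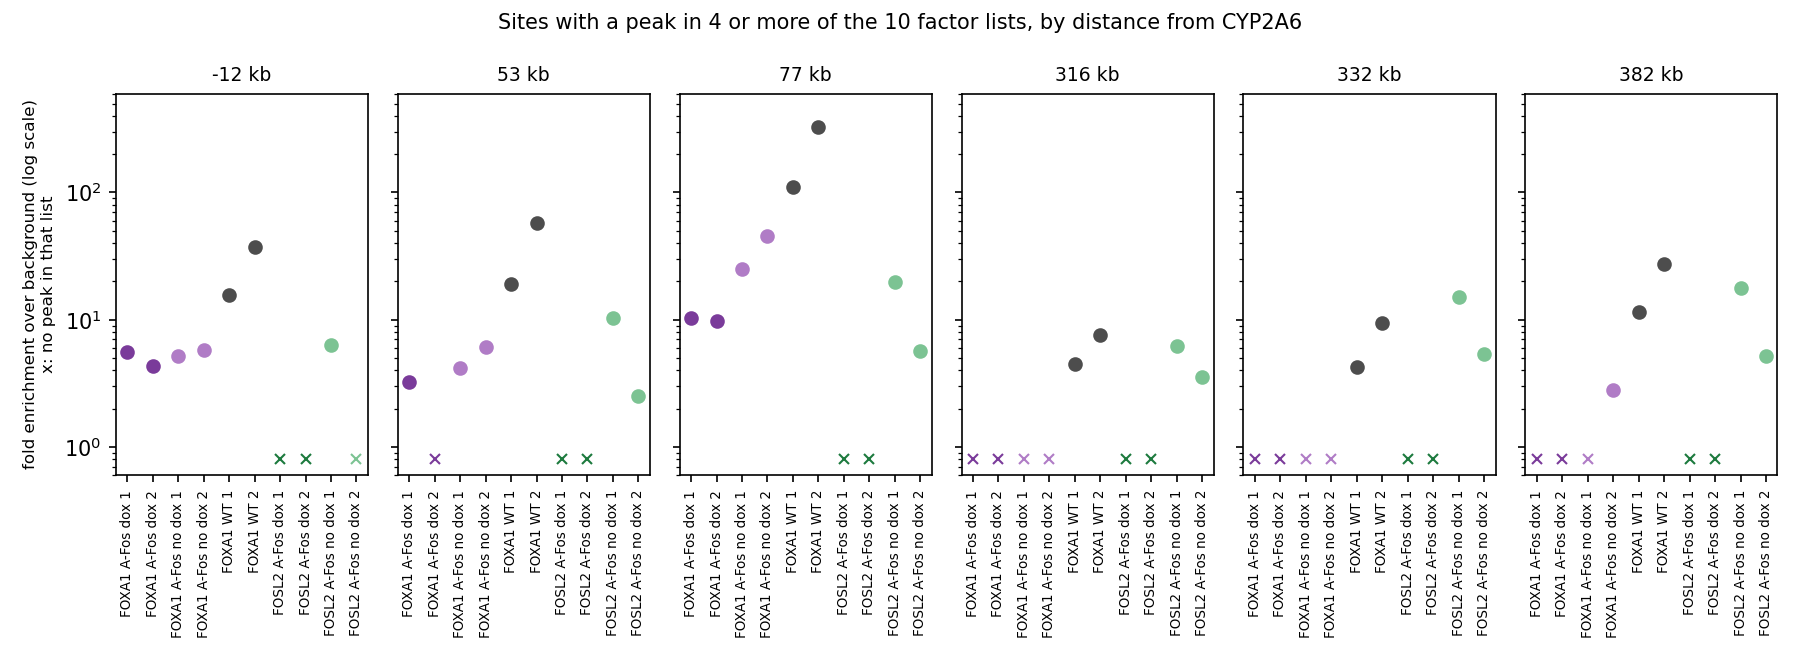
Authors' fold enrichment (log axis) at the 6 sites with a peak in at least 4 of the 10 factor lists, each panel headed by its distance in kb from CYP2A6, with crosses for lists without a peak. The site at 77 kb has the highest FOXA1 folds, lower in the doxycycline libraries than in those without doxycycline, and FOSL2 has crosses in the doxycycline libraries in each panel.

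CYP2S1 lay 45.8 kb or more beyond the H3K27me3 domain. Its 50 kb window held factor peaks, many of them also within 50 kb of CYP2F1 or inside AXL. No peak of either factor in a doxycycline library lay within 50 kb of CYP2S1. With doxycycline the nearest FOXA1 peaks were 101 kb away in both libraries and the nearest FOSL2 peaks 126 kb. Without doxycycline, FOSL2 had 5 and 4 peaks and FOXA1 0 and 1, and WT FOXA1 had 5 and 19. The FOXA1 site at the transcription start, chr19:41191984-41193348, had WT folds of 3.79 and 10.8, and FOSL2 was listed there at 3.26 in library 1 without doxycycline. This was the 1 promoter of the 5 printed above with a WT FOXA1 peak. The share of all promoters with such a peak was not computed. The CYP2A6, CYP2A7, CYP2B6 and CYP2A13 windows lay whole inside H3K27me3 peaks in both libraries, and the share of all promoters so covered was not computed either. Just outside the CYP2A6 window, 0.273 kb from the gene, WT library 2 had a FOXA1 peak inside H3K27me3, with a fold of 3.10.

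Between CYP2F1 and CYP2S1, FOXA1 in WT cells and FOSL2 without doxycycline were listed together in both libraries at chr19:41159080-41159536, with FOXA1 folds of 4.49 and 7.55 and FOSL2 folds of 6.17 and 3.53. They were also listed together 16.4 kb from CYP2S1 at chr19:41175924-41176815, with FOXA1 folds of 4.27 and 9.50 and FOSL2 folds of 15.1 and 5.38. Both sites overlapped the protein-coding gene LOC124904790. On the far side, inside AXL and 17.8 kb from CYP2S1, the site at chr19:41225301-41226935 had FOSL2 folds of 17.6 and 5.14 without doxycycline, FOXA1 folds of 11.6 and 27.4 in WT cells, and a FOXA1 fold of 2.80 in library 2 without doxycycline.

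Related genes elsewhere were read by the same rule. At least 50% cover in both libraries was reached by 5 of the 6 members for H3K27me3 and 1 for H3K9me3, against 1 and 0 of 10 other CYP2 genes. Over all protein-coding genes the shares were 5.04% and 2.19%. The median of the 2-library means was 95.7% for H3K27me3 and 38.9% for H3K9me3 over the members, against 0% and 6.10% over the other CYP2 genes. The covered gene of those 10 was CYP2E1, the ethanol-oxidising enzyme, with H3K27me3 at 88.1% and 100%. Of 15 CYP1, CYP3 and CYP4 genes none reached 50% in both libraries for either mark, with medians of 9.95% and 3.03%. The highest were CYP4F8, at 29.3% and 51.3% H3K27me3, and CYP4F22, at 34.1% and 43.1%. In the other CYP2 genes, 3 of 10 had a FOXA1 peak within 50 kb in both libraries with doxycycline (28.9% of all genes), 3 without it (24.0%) and 6 in WT cells (75.8%). FOSL2 peaks lay near 0 of the 10 with doxycycline (3.75% of all genes) and 4 without it (44.0%). In the 15 CYP1, CYP3 and CYP4 genes, FOXA1 peaks lay near 3 with doxycycline, 4 without it and 8 in WT cells. FOSL2 peaks lay near 3 of the 15 with doxycycline and 7 without it, beside the same shares of all genes. The 3 were CYP3A5, CYP3A7 and CYP3A43, which lie close together on chromosome 7.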

How the data were processed

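Each library had 1 deposited list, so replicates were not pooled. A list gives peak positions, a fold enrichment that the authors' caller wrote as a linear ratio, and, as deposited, −log10 p-values and −log10 q-values. The smallest deposited −log10 q was about 1.3. MACS2, deepTools, SAMtools 1.8, BWA 2.2.1, fastp 0.23.2 and DRAGEN are named with hg38 per the submitters' processing notes, with their order and parameters not given in the sources used here. Depth is unknown without read counts, and no counting interval can be given. Groups came from the sample titles.

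Gene intervals came from a RefSeq table of GRCh38.p14, used here without strand. Strand and promoters came from the RefSeq promoter table, which matched 5 of 6 members, and the ends of CYP2F1 are therefore given by coordinate. Cover is the share of bases inside peaks of a list. Ends were taken as 1 kb either side. Peaks of the 10 factor lists overlapping by at least 1 bp were merged into sites. Analyses used Python 3.11.15 and numpy 2.4.6, and Biopython 1.88 aligned promoters. Cover functions were tested on simulated data. Planned protein comparisons were not made, as protein sequences were not used here.

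The members and the gene lists were chosen with earlier results of these data known. The rule named the 6 members, all protein-coding genes within 250 kb, up to 4 genes per list by cover or nearest peak, and the 5 genes of at least 5 kb with the most similar cover. The alternatives were stricter peak thresholds, joined peaks, other windows, cover limits and gaps, summit overlap and each library left out.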

Additional observations from a re-analysis of the deposited data

How the results depend on the processing

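No paired analysis was possible because no result comes from a test. The values compared were cover, lengths and counts, which have no sign, so none could reverse. Across the alternatives, 48 values behind the main results stayed within 1 SD or, for counts, within 1.5 times, and 22 moved. For cover and length, leaving out 1 of 2 libraries cannot shift a mean by more than their SD. Those values are among the 48 by construction and show no stability. Median H3K27me3 cover of the 6 members, 95.7%, was 95.0% with peaks of −log10 q of at least 3, 95.0% with the upper part of each list, split at its median fold, and 97.6% with peaks within 1 kb joined. The longest joined block over a member, 328 kb as a mean, was 134 kb with gaps of 2 kb and 299.8 kb with the upper part. The count of members with H3K9me3 of at least 50% in both libraries, 1, was 3 at 25% cover and 0 at 80%, and ran from 1 to 3 with a library left out. FOXA1 peaks with doxycycline, 4.5 as a mean, numbered 0 within 10 kb and 1.5 in the upper part. Without doxycycline, 4 became 0 and 1, and WT, 39, became 12 and 10.5, or 24.5 with the stricter q. FOSL2 peaks with doxycycline, 2, numbered 0.5 within 10 kb and 0 under the stricter q and in the upper part, and the 1 region called in both doxycycline libraries was 0 with 200 bp around summits. FOSL2 without doxycycline, 15.5, numbered 3.5 within 10 kb and 5.5 in the upper part, and ran from 9 to 22 with a library left out: library 1 held 22 of the peaks. The cause of these shifts was not tested. Depth is unknown, so a missing peak does not show that a factor was absent.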

Other observations

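Of 13 regulators and redox partners of CYP genes, chosen with earlier results known, 1 had at least 50% H3K27me3 in both WT libraries. It was CEBPA, a liver and lung transcription factor gene, at 60.6% and 63.2%. None of the 13 reached 50% for H3K9me3. Over all protein-coding genes the shares were 5.04% for H3K27me3 and 2.19% for H3K9me3, so counts this small do not set the 13 apart. The medians of H3K27me3 and H3K9me3 cover were 95.7% and 38.9% over the 6 members, against 0% and 0.406% over the 13 genes. FOXA1 peaks lay within 50 kb in both libraries for 5 of the 13 with doxycycline (28.9% of all genes), 6 without it (24.0%) and 12 in WT cells (75.8%), and FOSL2 peaks for 0 with doxycycline (3.75%) and 7 without it (44.0%).

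Among 16788 genes of at least 5 kb, the 5 whose cover in the 4 histone lists lay nearest to the median of the members were MUC3A, KLK3, NPHS1, KRT9 and LOC124904077. Their mean absolute differences from it were 1.22, 3.31, 3.35, 4.27 and 4.98 percentage points.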
